A study of Mus musculus with 18 samples.

Results

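A set of 10 genes, taken by symbol, was followed through cartilage of the mouse ACL rupture model: the 3 TGF-beta ligands (Tgfb1, Tgfb2, Tgfb3), the 3 receptors (Tgfbr1, Tgfbr2, Tgfbr3) and the 4 latent TGF-beta binding proteins (Ltbp1 to Ltbp4). They are 10 of the 49184 mouse genes to which the measured transcripts were matched, and all 10 passed the filter on low counts. Total RNA was sequenced in 18 libraries of knee cartilage from young adult male C57bl6 mice, for which no engineered allele is named: 6 naïve libraries (labelled as day 7 naïve), 3 from injured right knees and 3 from contralateral left knees at day 1 after rupture, and 3 of each at day 7. The ligament was ruptured by a single mechanical load on the flexed right knee, without surgery, and the contralateral libraries are from the left knees of ruptured animals. The sources differ on the site, naming either femoral condyle or medial knee cartilage. Each library pooled the cartilage of several mice, and the sources differ on how many. Left and right naïve knees were pooled apart. By the methods the 6 naïve libraries came from only 6 mice, with knees of more than 1 mouse in each, so libraries of left and right knees share mice and are not 6 independent samples. Injured and contralateral libraries of a day share mice as well. The labels do not tie libraries to mice, so no test could take this into account. Every p-value therefore measures only the spread between libraries, and those against naïve may be too small.

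TGF-beta is secreted bound to its own propeptide, which keeps it latent. The latent complex is tethered to fibrillin-rich matrix by latent TGF-beta binding proteins and is released by integrins, proteases or thrombospondin. Freed ligand binds the type II receptor, which recruits and phosphorylates the type I receptor, and the type I receptor phosphorylates Smad2 and Smad3. In cartilage the pathway is known for maintaining chondrocytes and for driving matrix synthesis, and in synovium and tendon for fibrosis.

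At day 7, the injured libraries held more RNA of 2 ligands, 1 receptor and 3 binding proteins than the naïve libraries. Tgfb3 was 3.62-fold higher, Ltbp3 2.91-fold, Tgfb2 2.54-fold, Ltbp1 2.52-fold, Tgfbr2 1.77-fold and Ltbp4 1.74-fold. Tgfb1, the most abundant of the 10 per length in naïve cartilage, differed by less than its standard error (log2 fold change -0.07, SE 0.08). A gene was called at a Benjamini-Hochberg FDR of at most 0.05 and a change of at least 1.5-fold in edgeR's quasi-likelihood test over all genes. By that rule 6 of the 10 were called higher and 0 lower, where 10.4% of the 21129 genes tested were called higher and 6.11% lower. Against the day 7 contralateral libraries 5 of the 10 were called higher and 0 lower, with 9.33% of 21262 genes called higher and 3.23% lower. Both comparisons share the injured libraries.

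The libraries held 16074762 to 41794005 estimated counts each (median 25465706). The 10 genes had between 237 (Tgfb2) and 7346 (Tgfb1) counts in any library. One library stood apart. In day 7 contralateral replicate 1, 42.5% of all counts fell on the 10 leading genes, while this share was 16.6% to 29.8% elsewhere. Levels below are CPM, counts scaled to a common library size after TMM normalisation, which compare libraries for 1 gene. TPM values, which also divide by transcript length, are used to order genes and for shares within a library, and between groups only where they show that the 2 scales differ.

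**Figure D1:**
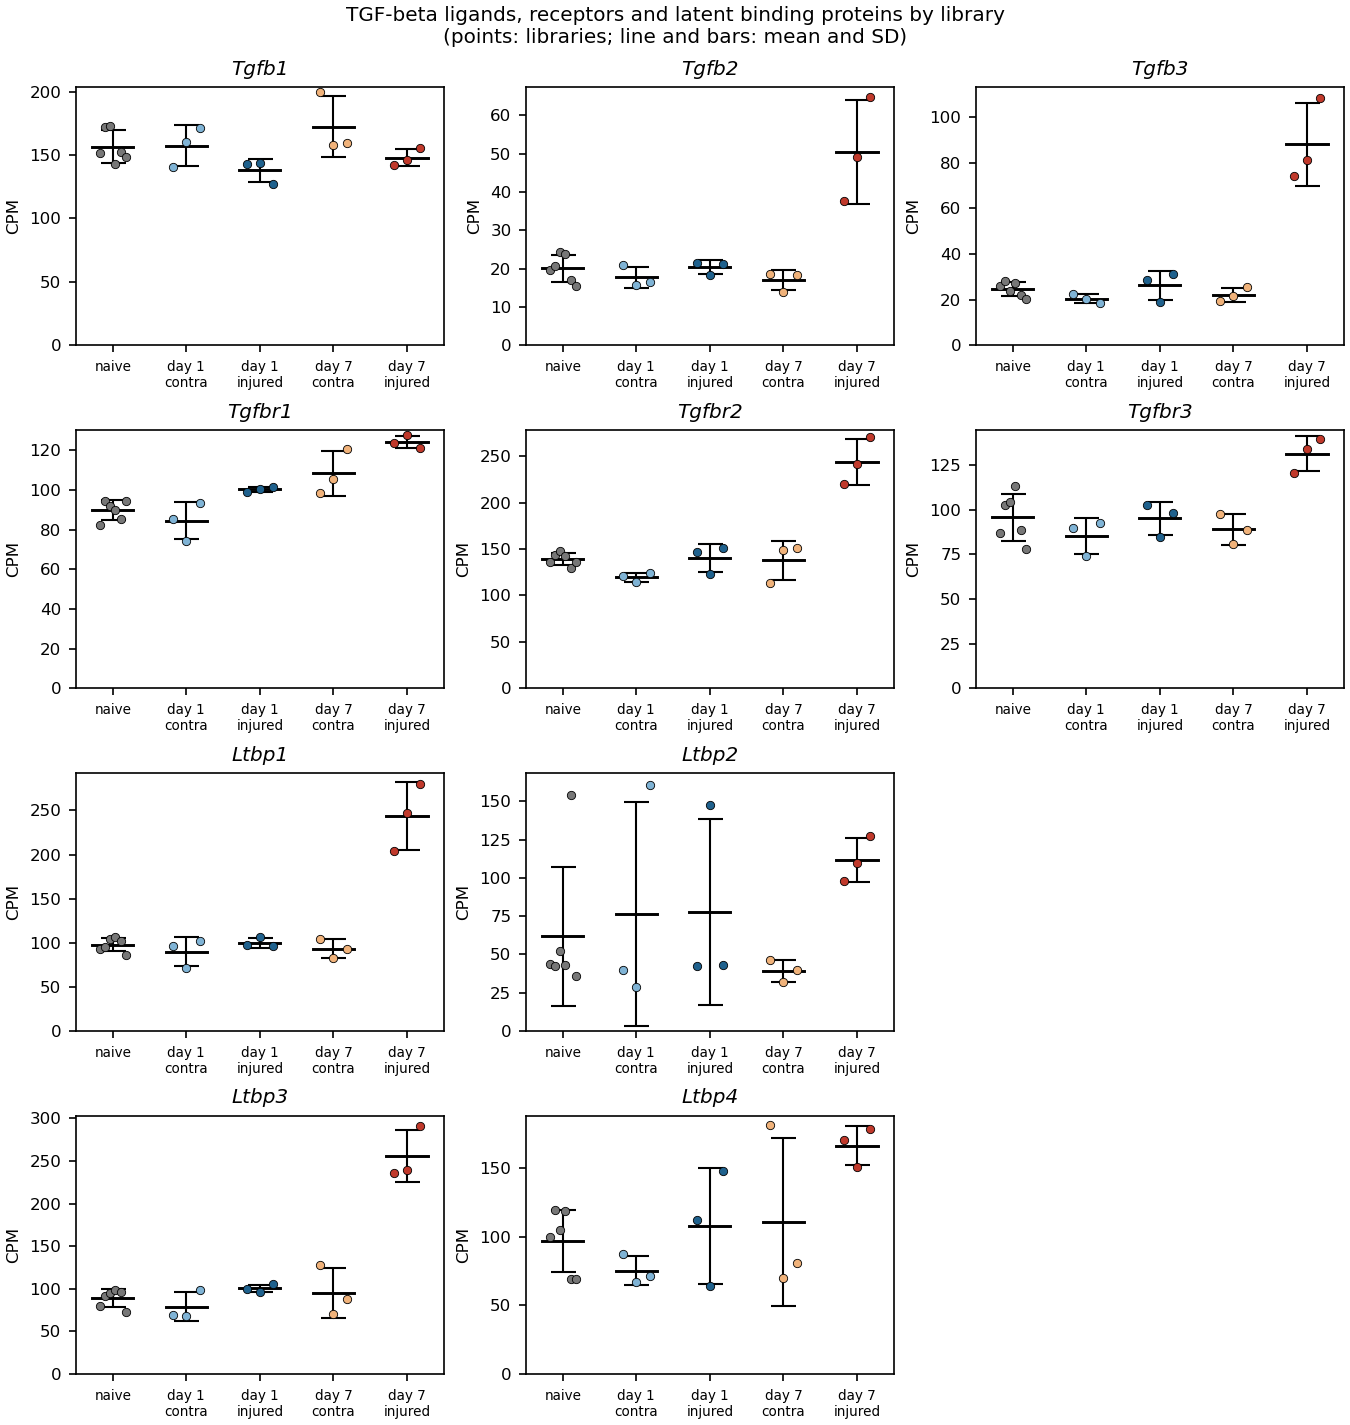
CPM (y axes, from 0) of the 10 genes in each of the 18 libraries, by group; points are libraries, the line is the group mean and the bars are 1 SD. For 7 of the 10 genes every day 7 injured library lies above all 15 others, while Tgfb1 stays between 127 and 199.7 CPM and Ltbp2 is high in 1 library of each of 3 other groups.

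The start regions of 4 transcripts are shown because the genes behind them behaved differently: Tgfb1 (level), Tgfb2 (higher at day 7) and 2 starts of Ltbp4, of which the share of Ltbp4-201 was higher at day 7. Each line gives the 100 bases before the start of the transcript, 5′ to 3′ on the gene's strand, from RefSeq sequence of build GRCm38.p6. Capitals mark matches to TATAAA and to GGGCGG or its reverse complement CCGCCC (the GC box).
Tgfb1-201, chr7:25686902-25687001, plus strand: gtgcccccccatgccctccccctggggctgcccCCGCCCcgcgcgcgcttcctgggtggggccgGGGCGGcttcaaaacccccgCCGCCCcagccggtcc
Tgfb2-201, chr1:186705990-186706089, minus strand: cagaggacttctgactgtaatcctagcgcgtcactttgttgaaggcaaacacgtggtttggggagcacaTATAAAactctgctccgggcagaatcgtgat
Ltbp4-201, chr7:27337693-27337792, minus strand: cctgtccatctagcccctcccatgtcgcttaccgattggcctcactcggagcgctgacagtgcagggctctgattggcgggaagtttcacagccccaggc
Ltbp4-205, chr7:27333664-27333763, minus strand: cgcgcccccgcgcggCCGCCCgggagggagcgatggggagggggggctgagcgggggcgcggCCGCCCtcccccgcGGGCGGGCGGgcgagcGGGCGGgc

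The Tgfb1 stretch was 82% G or C and held 3 GC boxes. That of Tgfb2 was 49% G or C and held 1 TATAAA, which begins 31 bases before the start. Upstream of Ltbp4-205 the stretch was 91% G or C with 5 GC boxes, of which 2 overlap, while the stretch before Ltbp4-201 was 62% G or C and held neither motif. That contrast depends on the start used: an Ltbp4 start in RefSeq, at 27337612, has 3 GC boxes in the 250 bases before it. RefSeq starts were found for 8 of the 10 genes. Over all 32851 mouse promoters searched in the 250 bases before the start on both strands, 32.7% held GGGCGG, 12.4% TATAAA, 6.75% TGANTCA (AP-1), 1.55% TGACGTCA (CRE) and 42.2% CAGAC (the Smad box). In the same window TATAAA was found for Tgfb2 alone, GGGCGG for Tgfb1, Tgfbr1, Ltbp2 and Ltbp4, TGACGTCA for Ltbp1, and CAGAC for Tgfb2, Tgfbr1, Tgfbr2, Ltbp1, Ltbp2 and Ltbp3. A match describes these letters only.

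Tgfb1 (chromosome 7, 25687002 to 25705077 in GRCm38, plus strand) encodes the ligand most studied in cartilage. The naïve libraries ran from 143 to 173 CPM with a median of 152 CPM. Day 1 contralateral libraries were at 140.2, 160.3 and 172 CPM, day 1 injured libraries at 143, 143 and 127 CPM, and day 7 contralateral libraries at 199.7, 158 and 159.5 CPM. The day 7 injured libraries had 142, 146 and 155 CPM. They overlapped the naïve range and lay below all 3 day 7 contralateral libraries, a pattern found for 14.3% of genes. The difference from the contralateral libraries missed the call (log2 fold change -0.22, SE 0.11, adjusted p = 0.186, edgeR).

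Tgfb2 (chromosome 1, 186622792 to 186705989, minus strand) encodes a ligand that binds the type II receptor well only with the help of the co-receptor encoded by Tgfbr3. Its level in the naïve libraries was 15.4 to 24.3 CPM, with a median of 20.2. Day 1 injured libraries had 21.5, 18.2 and 21.3 CPM, and day 7 contralateral libraries 18.5, 13.996 and 18.5 CPM. The 3 day 7 injured libraries had 37.6, 49.0 and 64.8 CPM, all above every other library. The log2 fold change was 1.35 against naïve (SE 0.16, adjusted p = 1.68e-05) and 1.57 against contralateral (SE 0.20, adjusted p = 2.82e-05), both by edgeR.

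Tgfb3 (chromosome 12, 86056745 to 86079041, minus strand), which encodes a ligand used to make cultured progenitors form cartilage, had the largest fold change of the 10 in both day 7 comparisons. Naïve libraries had 20.5 to 28.1 CPM with a median of 25.0. Injured libraries at day 1 had 28.4, 19.2 and 31.2 CPM and overlapped them. Contralateral libraries at day 7 had 19.3, 21.8 and 25.4 CPM. In the day 7 injured libraries the values were 74.2, 81.4 and 108.6 CPM, with no overlap with the other 15. The log2 fold change was 1.86 against naïve (SE 0.14, adjusted p = 2.24e-07) and 1.99 against contralateral (SE 0.18, adjusted p = 8.29e-07, edgeR). Ttll5 overlaps the end of Tgfb3 on the opposite strand. Strand use in the counting was not given in the sources used here, and Ttll5 itself had 20.9 CPM in naïve and 19.2 CPM in day 7 injured libraries on average.

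The make-up of the ligand RNA differed with these changes. Per length, Tgfb1 gave 86.8% ± 2.4 (SD, n = 6) of the summed ligand TPM in naïve libraries and 64.7% ± 4.0 (n = 3) in day 7 injured libraries. The share of Tgfb3 was 7.2% ± 0.9 and 22.2% ± 2.3, and that of Tgfb2 was 6.1% ± 1.6 and 13.1% ± 2.9. In the other 3 groups Tgfb1 gave 85.5% to 88.8% on average. The shares come from the same libraries as the levels and were not tested.

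**Figure D2:**
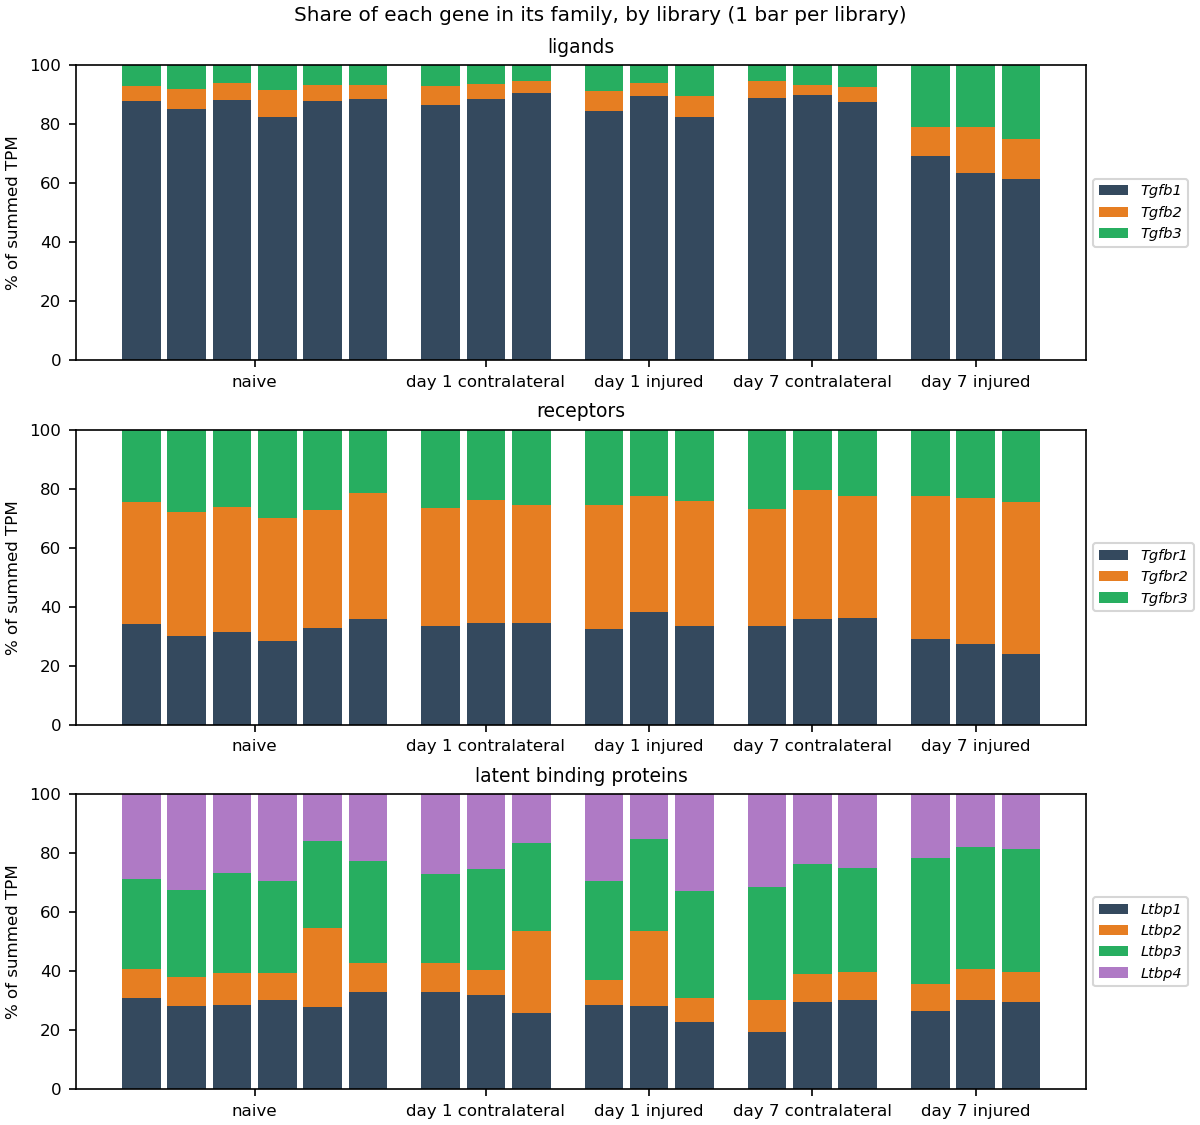
Share of each gene in the summed TPM of its family (y axis, percent), 1 bar per library, for ligands, receptors and latent binding proteins. The Tgfb1 share lies between 61.4% and 69.1% in the day 7 injured libraries and at or above 82.4% in the other 15.

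Tgfbr2 (chromosome 9, 116084293 to 116175360, minus strand) encodes the type II receptor that binds ligand first. It had 129 to 148 CPM in naïve libraries (median 139), 147, 123 and 151 CPM in day 1 injured libraries and 113, 149 and 151 CPM in day 7 contralateral libraries. The day 1 contralateral libraries, at 121, 114 and 124 CPM, lay below all naïve libraries, which holds for 0.748% of genes (log2 fold change -0.22, SE 0.08, adjusted p = 0.9998, edgeR). Day 7 injured libraries had 220.1, 241 and 270.2 CPM, above all others. The log2 fold change against naïve was 0.83 (SE 0.08, adjusted p = 1.44e-06) and against contralateral 0.82 (SE 0.11, adjusted p = 6.04e-05, edgeR). Its share of receptor TPM was 41.7% ± 0.9 in naïve (n = 6) and 49.8% ± 1.6 in day 7 injured libraries (n = 3).

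Tgfbr1 (chromosome 4, 47353222 to 47414931, plus strand), the signalling type I receptor, had smaller differences. Naïve libraries ran from 82.1 to 94.6 CPM (median 90.9) and day 7 injured libraries had 124, 128 and 121 CPM. The change of 1.40-fold passed the FDR (adjusted p = 9.96e-05, edgeR) and stayed under the 1.5-fold limit. Against day 7 contralateral libraries the log2 fold change was 0.20 (SE 0.09) and missed the FDR (adjusted p = 0.163, edgeR). Contralateral libraries at day 7, at 98.7, 106 and 121 CPM, were also above all naïve libraries, which holds for 1.92% of genes. Day 1 injured libraries, at 98.8, 101 and 101 CPM, lay above all naïve and all day 1 contralateral libraries, which holds for 1.06% and 5.09% of genes. None of these differences of the contralateral or day 1 libraries passed the adjustment, with edgeR adjusted p-values of 0.248 (day 7 contralateral against naïve), 0.987 (day 1 injured against naïve) and 0.755 (day 1 injured against day 1 contralateral).

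Tgfbr3 (chromosome 5, 107106570 to 107289629, minus strand) encodes betaglycan, the co-receptor that presents ligand. Its naïve values were 78.1 to 113 CPM (median 95.6), and day 7 injured libraries had 120.3, 134 and 139.5 CPM. These lay above all other libraries, at 1.39-fold the naïve level (adjusted p = 0.00497) and 1.48-fold the contralateral level (adjusted p = 0.00644, edgeR), both under the fold limit. Against contralateral it was called without day 7 contralateral replicate 1, the library that stood apart (log2 fold change 0.65, adjusted p = 0.00469), and without day 7 injured replicate 1 (0.62, adjusted p = 0.00752, edgeR).

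Ltbp1 (chromosome 17, 75005568 to 75392512, plus strand) encodes a binding protein that anchors the latent complex. Naïve libraries had 86.0 to 106 CPM (median 98.8), day 1 injured libraries 97.2, 106 and 96.4 CPM, and day 7 contralateral libraries 104.5, 82.7 and 92.8 CPM. Day 7 injured libraries had 204, 247 and 280.3 CPM. No other library came near them, and the log2 fold change was 1.33 against naïve (SE 0.11, adjusted p = 5.12e-07) and 1.39 against contralateral (SE 0.14, adjusted p = 2.28e-06, edgeR).

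Ltbp3 (chromosome 19, 5740904 to 5758532, plus strand) encodes a binding protein known for its role in the skeleton. It had 72.7 to 98.9 CPM in naïve libraries (median 93.4) and 100.2, 96.2 and 105 CPM in day 1 injured libraries. Day 7 contralateral libraries had 127, 70.3 and 88.1 CPM. The day 7 injured values of 236, 239.7 and 291 CPM were above all of these. The log2 fold change was 1.54 against naïve (SE 0.12, adjusted p = 2.90e-07) and 1.43 against contralateral (SE 0.19, adjusted p = 3.84e-05, edgeR).

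Ltbp4 (chromosome 7, 27305136 to 27337692, minus strand) encodes a binding protein known for elastic fibre assembly. Naïve libraries ran from 69.1 to 119.6 CPM (median 102). Day 1 contralateral libraries had 87.3, 67.3 and 71.6 CPM, and day 1 injured libraries 112, 64.1 and 148 CPM, the last above all naïve libraries. The day 7 injured libraries had 170.3, 151 and 178 CPM. They lay above the naïve libraries, as 8 of the 10 genes did against 17.3% of all genes, but not above day 7 contralateral replicate 1, the library that stood apart, at 181 CPM. The other contralateral libraries had 70.2 and 80.8 CPM. Against naïve the log2 fold change was 0.80 (SE 0.22, adjusted p = 0.0122). Without day 7 injured replicate 3 it was 0.75 with an adjusted p of 0.0533. Against contralateral it was 0.59 (SE 0.33, adjusted p = 0.233), and without day 7 contralateral replicate 1 it was 1.16 (adjusted p = 0.0102), all by edgeR.

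Ltbp2 (chromosome 12, 84783212 to 84876532, minus strand) encodes a binding protein that does not hold the latent complex and sits on fibrillin microfibrils. In the naïve and day 1 libraries its values did not follow the groups. The other 5 naïve libraries had 36.2 to 52.5 CPM beside the 153.8 CPM of naïve replicate 5. Day 1 contralateral libraries had 39.8, 29.0 and 160.6 CPM, and day 1 injured libraries 42.4, 147.6 and 43.0 CPM. The day 7 contralateral libraries had 46.3, 32.0 and 39.7 CPM and the day 7 injured ones 98.1, 109.7 and 127 CPM. The difference from naïve was not called (log2 fold change 0.86, SE 0.56, adjusted p = 0.262). Without naïve replicate 5 it was 1.37 with an adjusted p of 0.0436, and against contralateral it was 1.51 (SE 0.64, adjusted p = 0.114, edgeR). Fitted on the 2 day 7 groups alone, it was called (1.503, adjusted p = 0.00149, edgeR). Every day 7 injured library lay above every day 7 contralateral library, which holds for 18.6% of genes.

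The same 3 libraries were high for the genes most like Ltbp2. Over the 18 libraries these were Fads3, Chl1 and Tgfbi (Pearson r of log2(CPM + 1) 0.97, 0.96 and 0.96, and 0.99, 0.95 and 0.96 after group means were removed), given as a description with no test. Chl1 had 45.4, 54.8 and 47.5 CPM in those 3 libraries, 25.84 to 25.85 CPM in the day 7 injured libraries and at most 8.5 CPM in the rest. Prg4, the lubricin gene of the cartilage surface and synovial lining, had 1409, 1649 and 1775 CPM in the 3 libraries and 240.5 to 892 CPM in the other 12 outside day 7 injured. The 8 fibroblast markers did not move one way in them. Postn had 305, 209 and 207 CPM there and 46.4 to 168 CPM in the same 12, and Pdpn 45.5, 54.1 and 47.5 CPM against 5.69 to 15.2 CPM. Clec3b, at 2.71, 2.55 and 2.77 CPM, and Dpt, at 33.8, 24.3 and 28.4 CPM, lay below the 12 (13.4 to 36.1 CPM and 35.0 to 80.2 CPM). Pdgfra, Thy1, Col1a1 and Col3a1 overlapped the 12. All 4 adipocyte markers lay below the 12, with sums of 118.6, 119.7 and 102.5 CPM against 184 to 368 CPM, and so did 3 of the 6 skeletal muscle markers (Myh1, Myh2 and Ckm), Kdr of the endothelial list and Sost of the osteocyte list. Cd68 of the macrophage list lay above the 12. Prg4 and these markers were set beside Ltbp2 after their values were seen, and their part in the Ltbp2 values was not tested.

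**Figure D3:**
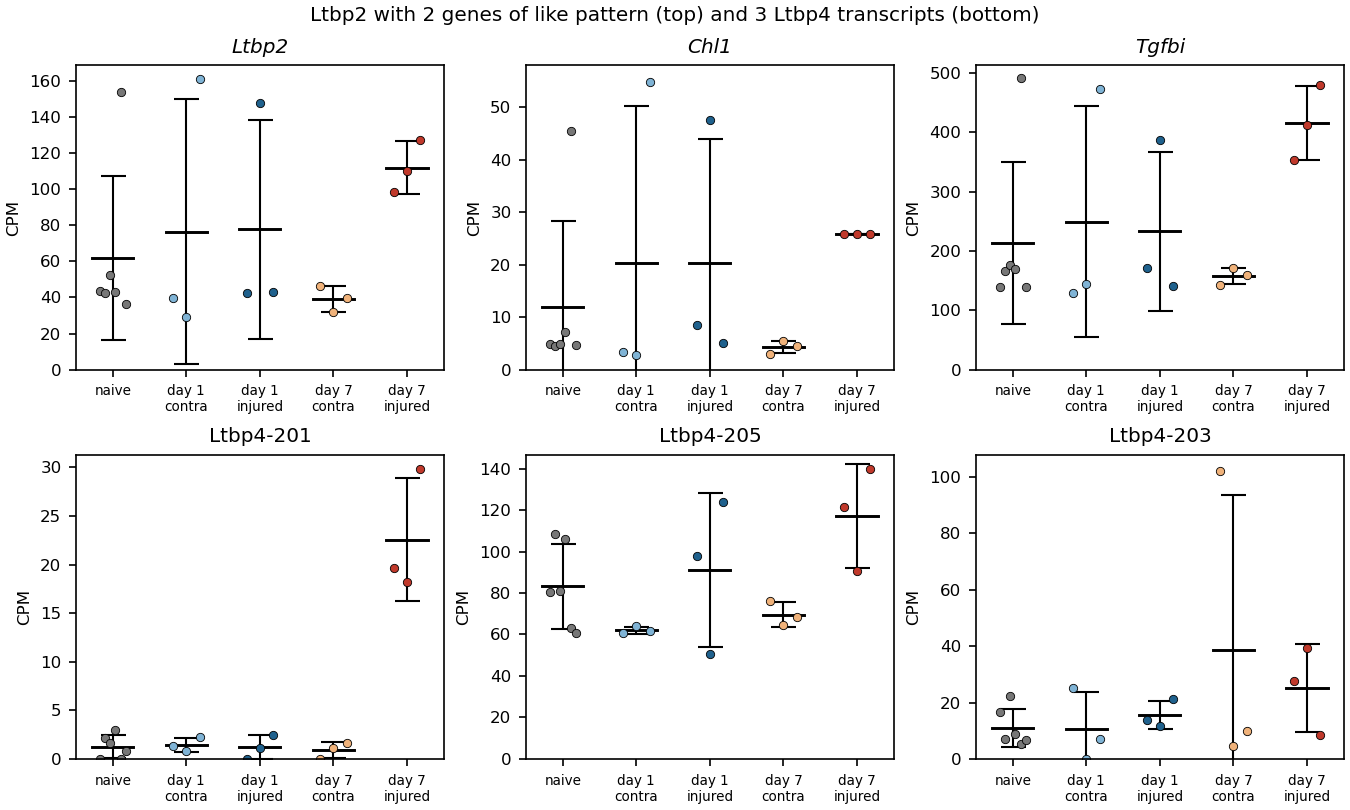
CPM (y axes, from 0) by library and group for Ltbp2, Chl1 and Tgfbi (top) and for 3 transcripts of Ltbp4 (bottom); points are libraries, lines are means and bars are 1 SD, cut off at 0. One library each of the naïve, day 1 contralateral and day 1 injured groups is high in all 3 upper panels, and Ltbp4-201 is at or below 2.98 CPM in all but the day 7 injured libraries.

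Of 61 transcripts of the 10 genes in the files, 26 reached 10% of their gene's TPM in some group. Among the 25 from genes with several transcripts, the share in day 7 injured libraries overlapped the naïve share for 21, was above it for 2 (Tgfb1-201 and Ltbp4-201) and below it for 2 (Tgfb1-205 and Ltbp1-207). Over 44202 such transcripts of all genes, 3.63% lay above and 3.05% below. Of the 25, Ltbp4-201, which starts just after the upstream stretch printed above, was the only one whose share in each day 7 injured library lay above that in all 15 others, which holds for 1.12% of transcripts. It gave 1.08% ± 0.93 (SD, n = 6) of Ltbp4 TPM in naïve libraries and 12.7% ± 2.9 (n = 3) in day 7 injured libraries, with 10.8% to 15.96% there and 0% to 2.96% in the other 15. Its level in the day 7 injured libraries was 19.7, 18.2 and 29.8 CPM. The downstream start Ltbp4-205 gave 84.6% ± 5.7 and 69.2% ± 10.1, while its level averaged 83.3 and 117 CPM. Both its share and its CPM overlapped between the 2 groups. The short noncoding Ltbp1-207 (519 bases) gave 19.5% ± 2.3 and 6.96% ± 2.72 of Ltbp1 TPM. Its level was only 1.26 to 1.82 CPM in naïve and 0.75 to 1.72 CPM in day 7 injured libraries, which overlapped. The whole gene had 86.0 to 106 CPM and 204 to 280.3 CPM. TPM divides by length, so a short transcript takes a larger share of TPM than of counts. The same holds for Tgfb1-205 (241 bases), which averaged 0.98 and 0.34 CPM. The Ltbp1-207 share in each day 7 injured library lay below that in all 15 others, which holds for 0.812% of transcripts. Transcript estimates divide reads shared between transcripts, and no test was made on them.

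In naïve libraries the order of the 10 genes by mean TPM was Tgfb1 (47.4), Tgfbr2 (14.8), Ltbp3 (12.4), Ltbp1 (11.7), Tgfbr1 (11.4), Ltbp4 (10.01), Tgfbr3 (9.28), Ltbp2 (5.28), Tgfb3 (3.88) and Tgfb2 (3.26). Only the first was apart from its neighbour, and every later pair of neighbours overlapped in range. In day 7 injured libraries Tgfb1 (32.7 TPM) and Ltbp3 (30.7 TPM) overlapped. The TPM of Tgfb1 was lower in each of them than in all naïve libraries, which holds for 19.7% of genes, while its CPM overlapped them. The receptors differed between the scales as well. Tgfbr1 had 8.84 to 13.3 TPM in naïve libraries and 10.1 to 12.2 TPM in day 7 injured libraries, and Tgfbr3 7.24 to 11.05 TPM and 7.76 to 12.3 TPM, so both overlapped in TPM and not in CPM. So did Tgfbr2 (12.4 to 17.7 TPM and 16.7 to 26.1 TPM) and Tgfb2 (2.32 to 4.43 TPM and 3.88 to 8.60 TPM), both of which were called. In TPM 4 of the 10, Tgfb3, Ltbp1, Ltbp3 and Ltbp4, lay above all naïve libraries, where 4.58% of genes did. In TPM 68.6% of genes were lower in every day 7 than in every day 1 injured library, Tgfb1 and Tgfbr1 among them. In the other direction 0 of the 10 were higher, where 1.66% of all genes were. CPM was TMM-normalised and TPM was not, and the 10 leading genes held 26.4% to 29.8% of the counts in day 7 injured libraries.

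At day 1 none of the 10 genes was called, nor was any gene. edgeR called 0 of 21129 genes (0%) between day 1 injured and naïve libraries, with 959 genes (4.54%) at an unadjusted p of 0.05, limma-voom called 0 and DESeq2 called 15, all lower. Between day 1 injured and contralateral libraries edgeR, limma-voom and DESeq2 all called 0, with 1383 genes at an unadjusted p of 0.05 in edgeR. For Tgfb3 the log2 fold change against naïve was 0.09 (SE 0.15) and for Ltbp3 0.17 (SE 0.13). Between contralateral and naïve libraries edgeR called 0 genes at day 7 (3220 at an unadjusted p of 0.05, DESeq2 18 higher and 13 lower) and 0 at day 1 (554 at an unadjusted p of 0.05, DESeq2 1 higher and 1 lower), and limma-voom called 0 at both.

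The change between the days was tested itself. Between day 7 and day 1 injured libraries Tgfb2, Tgfb3, Tgfbr2, Ltbp1 and Ltbp3 were called higher, with log2 fold changes of 1.33, 1.77, 0.81, 1.30 and 1.37, where 9.04% of genes were called higher and 6.38% lower. Ltbp4 was not called (0.64, adjusted p = 0.0808), but was without day 1 injured replicate 3 (0.93, adjusted p = 0.0246, edgeR). The difference between the injury effects (injured less contralateral) at day 7 and at day 1 was called for the same 5 genes, where 3.53% of 21262 genes were called higher and 0.245% lower. Among these 5 it was largest for Tgfb3 (1.63, SE 0.25, adjusted p = 9.70e-04), followed by Tgfb2 (1.38, SE 0.28, adjusted p = 0.00864) and Ltbp1 (1.23, SE 0.20, adjusted p = 0.00119, edgeR). For Ltbp2, which was not called, it was 1.49 (SE 0.89, adjusted p = 0.437, edgeR). For Ltbp3 it was 1.08 (SE 0.26, adjusted p = 0.0262) and for Tgfbr2 0.59 (SE 0.16, adjusted p = 0.0470), and these calls were the least stable. Leaving out 1 of the 12 libraries at a time ended the call for Ltbp3 in 6 cases and for Tgfbr2 in 10. With an offset for transcript length the Tgfb2 call was lost as well (1.40, adjusted p = 0.0687, edgeR).

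**Figure D4:**
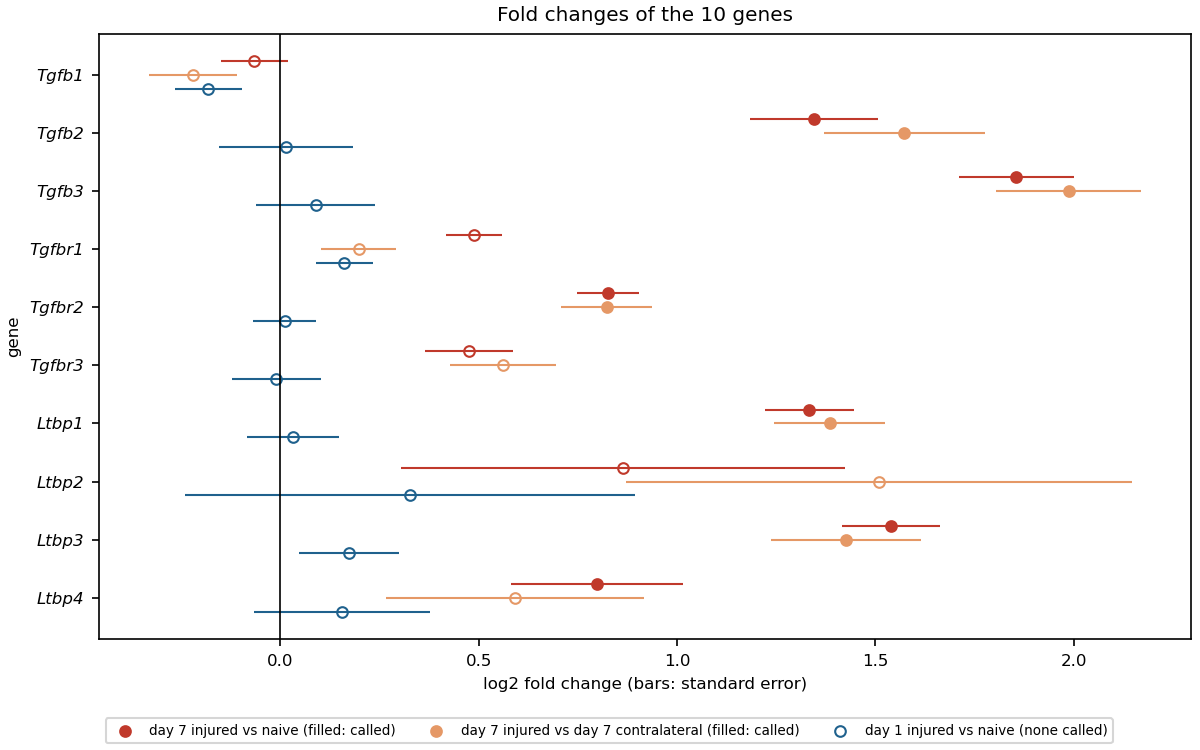
Log2 fold changes (x axis) of the 10 genes (y axis) for 3 comparisons, with bars of 1 standard error; filled points were called. The day 7 comparisons lie to the right for 9 of the 10 genes, and no gene was called at day 1.

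For 7 of the 10 genes, every day 7 injured library lay above all 15 others (Tgfb2, Tgfb3, Tgfbr1, Tgfbr2, Tgfbr3, Ltbp1 and Ltbp3), a pattern of 11.9% of genes, with 3.22% below all. That count is in CPM. In TPM 0 of the 10 lay above all 15 others, where 1.43% of genes did. Among the 10, the closest pairs over the 18 libraries were Tgfb3 with Tgfbr2 and Ltbp1 with Ltbp3 (r 0.97 each), and the r within groups was 0.75 and 0.74. Tgfb1 had r between -0.28 and 0.03 with the other 9, and between -0.29 and 0.63 (Ltbp3) within groups. Outside the list, Tgfb3 was closest to Twsg1 (r 0.99), a BMP-binding protein, Tgfb2 to Nfix (0.98), Ltbp1 to Aebp1 (0.98), Ltbp3 to Chpf (0.99), a chondroitin polymerising factor, and Tgfbr2 to Rftn2 (0.99). The points share 5 groups and 1 tissue, and these values describe the libraries only.

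Partners that hold or release latent TGF-beta were mostly higher at day 7. Of 16 tested, 12 were called higher than naïve and 0 lower, where 10.4% of all genes were called higher and 6.11% lower. Their log2 fold changes had a median of 1.03, against -0.04 over all genes. Fbn2, a fibrillin of developing matrix, went from 9.11 to 15.9 CPM in naïve libraries to 189 to 286 CPM (log2 fold change 4.42, SE 0.20). The gelatinase gene Mmp2 rose by 3.29 (SE 0.15), Mmp14, which encodes a membrane protease, by 2.82 (SE 0.15), and Fbn1 by 2.18 (SE 0.31). Itgb1, the most abundant of the list per length in naïve libraries, rose 2.01-fold. Itgb3, Itgb6, Nrros and Furin were not called (log2 fold changes -0.28, -0.53, -0.26 and 0.50).

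Proteoglycans that bind TGF-beta were called higher in 4 of 4, beside the same 10.4% of all genes. Aspn, which encodes asporin, had 24.9 to 48.9 CPM in naïve and 459.5 to 889 CPM in day 7 injured libraries (log2 fold change 4.22, SE 0.27). The values were 2.30 (SE 0.16) for Bgn, 1.99 (SE 0.22) for Fmod and 1.26 (SE 0.19) for Dcn, the most abundant of the 4 per length in naïve libraries. Against contralateral libraries 4 of 4 were called as well, where 9.33% of all genes were called higher.

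Co-receptors and receptor modulators were called higher in 4 of 9, with a median of 0.55 (10.4% and -0.04 over all genes). They were Pmepa1, a target that dampens Smad signalling (1.92, SE 0.22), Cd109 (1.06, SE 0.11), Vasn (1.06, SE 0.11), the most abundant of the list per length in naïve libraries, and Eng (0.63, SE 0.14). Smads and their cofactors were called higher in 3 of 10, with a median of 0.42, beside the same share and median of all genes. Ski (0.96, SE 0.11) and Skil (0.75, SE 0.13) encode repressors of Smad transcription, and Smad3 (0.60, SE 0.10) an effector. Smad4, the most abundant of that list per length in naïve libraries, had 0.49 (SE 0.06), which passed the FDR and not the fold limit, and Smad2 0.34 (SE 0.08).

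Genes known to respond to TGF-beta were called higher in 8 of 12, with a median of 0.99, where 10.4% of all genes were called higher. Lox, which crosslinks collagen, rose by 2.27 (SE 0.38) on the log2 scale, Cdkn2b by 2.15 (SE 0.24), from a naïve level of only 0.46 to 0.77 CPM, Pmepa1 as above and Acta2 by 1.38 (SE 0.27). Tgfbi had 0.98 (SE 0.46, adjusted p = 0.124) and Prg4, the most abundant of the list per length in naïve libraries, 0.65 (SE 0.42, adjusted p = 0.266), and these were not called. Pmepa1, Skil and Smad7 stand in more than 1 of these pathway lists, and Prg4 is also among the chondrocyte markers.

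**Figure D5:**
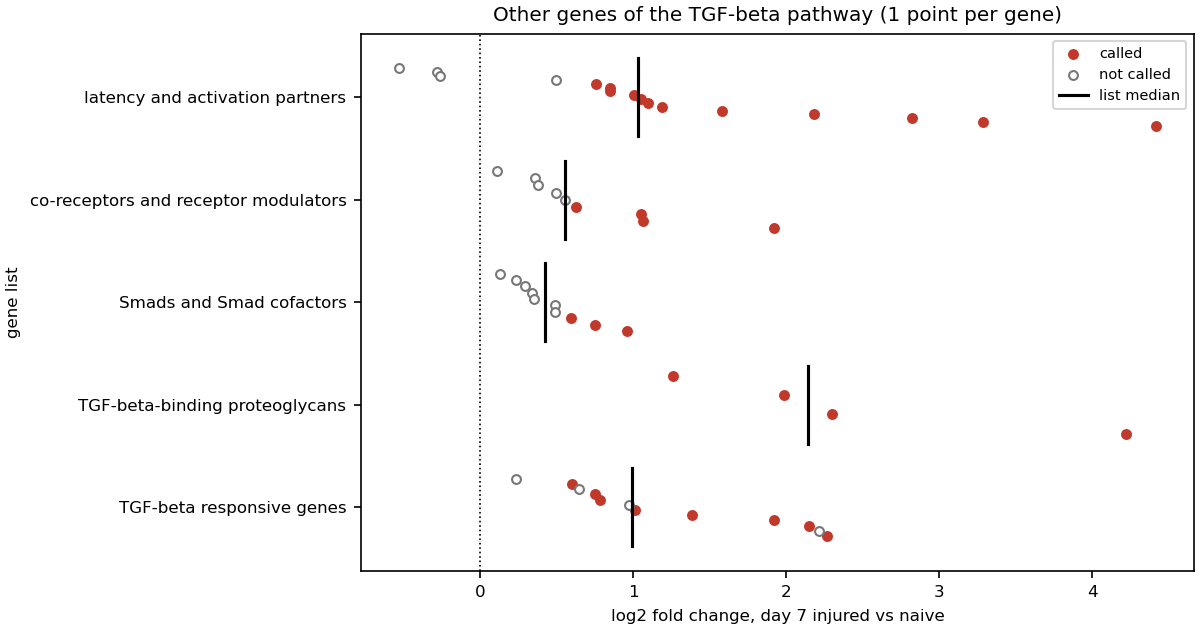
Log2 fold change of day 7 injured against naïve libraries (x axis) for each gene of 5 TGF-beta pathway lists (y axis); red points were called, open points were not, and the black line is the list median. The medians lie between 0.42 (Smads and cofactors) and 2.14 (proteoglycans).

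Markers of other cells moved with the same groups, and their part in the results above was not tested. Bulk libraries cannot separate fewer cells of a type from less RNA per cell. Of 8 synovial and connective tissue fibroblast markers, 6 were called higher than naïve at day 7 (median 1.98), against 10.4% of all genes, led by Postn (4.29) and Col3a1 (3.65). Their summed level, carried mostly by Col1a1, was 10581 to 18270 CPM in naïve, 16948 to 56445 CPM in day 7 contralateral and 72238 to 83170 CPM in day 7 injured libraries. The highest contralateral sum was that of replicate 1, the library that stood apart. Endothelial markers were called higher in 3 of 5, with sums of 229 to 276 CPM in naïve and 356 to 444 CPM in day 7 injured libraries, Pecam1 being the most abundant. Erythroid markers fell in 4 of 7, against 6.11% of all genes (sum 30796 to 41287 CPM in naïve, 16677 to 27502 CPM in day 7 injured, Hbb-bs most abundant). Neutrophil and marrow markers fell in 2 of 7 and megakaryocyte markers in 2 of 5.

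The label gives chondrocytes. Of 10 chondrocyte markers 4 were called higher at day 7 (Acan 2.96-fold, Comp 2.63-fold, Sox9 2.56-fold and Col11a1 2.39-fold), and all 10 had a fold change above 1. Col2a1, the most abundant, had 2595 to 4989 CPM in naïve and 3611 to 4116 CPM in day 7 injured libraries, and 10448 CPM in day 7 contralateral replicate 1. No marker of any of the 11 cell-type lists was at 0 in all libraries. Macrophage markers were called in 0 of 8, osteoclast markers higher in 1 of 5, osteoblast and osteocyte markers higher in 1 and lower in 1 of 7, muscle markers lower in 1 of 6 and adipocyte markers lower in 1 of 4. Over all genes the shares were 10.4% higher and 6.11% lower.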

How the data were processed

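Cartilage RNA was sequenced by the authors, who trimmed the reads and quantified transcripts with kallisto against mouse GRCm38 transcripts per the study's methods; per the labels the build is GRCh38, but the identifiers are mouse. The submitters' processing notes name kallisto and DESeq2. The estimated counts deposited by the authors are kallisto's expected counts per transcript and are not normalised. The deposited TPM values are scaled by length and library total. The study removed 1 library for low mapping, which it does not name.

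Of 137436 transcripts, 135107 (98.3%) matched GENCODE vM21 genes. The 2329 others (0.667% to 3.90% of counts) were left out. Counts were summed per gene, rounded and tested in edgeR 4.0.16 (R 4.3.3) with TMM, the filterByExpr filter and a mean per group. Comparisons without day 7 contralateral used 15 libraries and the others all 18. Standard errors came from the log2 fold change and F statistic. The study's duplicateCorrelation step could not be repeated, since the labels do not name mice. The scripts were tested on simulated counts.

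All 10 genes are named. Other pathway genes were named by fold change, up to 4 called per list in each direction, with the most abundant, and 3 like genes per member by Pearson r. Values of 2 other genes are not reported here, 1 of which is counted in its list. The genes, lists and rules were chosen with earlier results of these data known. Alternatives were DESeq2 1.42.0, limma-voom (limma 3.58.1), RLE factors, no filter, a transcript length offset, other libraries in the fit, other thresholds and leaving out each library.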

Additional observations from a re-analysis of the deposited data

Results flagged for a closer look

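Ltbp2 in naïve replicate 5, at 153.8 CPM, lay far from the other 5 naïve libraries, with a gap of 0.862 of the group's range. A gap large enough to be flagged is found by chance in about 5% of groups, and 10 groups were tested. One library of the day 1 contralateral group and one of the day 1 injured group were high in the same way (160.6 and 147.6 CPM).

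For 5 genes the injury effect at day 7 differed from that at day 1 by the test of the difference itself (edgeR, adjusted over all genes, log2 scale): Tgfb3 by 1.63 (adjusted p = 9.70e-04), Tgfb2 by 1.38 (adjusted p = 0.00864), Ltbp1 by 1.23 (adjusted p = 0.00119), Ltbp3 by 1.08 (adjusted p = 0.0262) and Tgfbr2 by 0.59 (adjusted p = 0.0470). Over all 21262 genes 3.53% were called higher and 0.245% lower. The Tgfbr2 call held in 4 of 20 alternatives and that of Ltbp3 in 11 of 20. That of Tgfb2 was lost with a transcript length offset (adjusted p = 0.0687, edgeR).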

How the results depend on the processing

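Over 1400 recomputed log2 fold changes of the 10 genes in 8 comparisons, 1319 kept their direction and side of the threshold, 28 lost their call, 11 gained one and 42 changed sign. None of those that changed sign had been called. The 6 calls against naïve libraries at day 7 held under each alternative tool, normalisation, filter and choice of libraries, except that of Ltbp4 at an FDR of 0.01 and without day 7 injured replicate 3. With no fold limit Tgfbr1 and Tgfbr3 were also called. So were 7 of the 9 co-receptors and receptor modulators and 5 of the 10 Smads and cofactors, where 3960 of 21129 genes were called higher. Fitted on the 2 groups alone, Ltbp2 was called against contralateral libraries (1.503, adjusted p = 0.00149, edgeR).

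The difference between the injury effects was called for 5 genes, also with limma-voom, for 4 with RLE factors, no filter or DESeq2, for 2 with a transcript length offset, for 3 with only the groups compared and for 3 at an FDR of 0.01. Over all genes the main fit called 750 higher, limma-voom 780, RLE factors 695, no filter 648 and DESeq2 979. The length offset called 515 higher, only the groups compared 521 and the FDR of 0.01 341. Leaving out 1 library gave 3 to 5. The count was 3 without day 1 contralateral replicate 3, day 1 injured replicate 1 or 2, day 7 contralateral replicate 2 or day 7 injured replicate 3. With the length offset Tgfb2 (1.40, adjusted p = 0.0687), Ltbp3 (0.88, adjusted p = 0.167) and Tgfbr2 (0.53, adjusted p = 0.0914, edgeR) were lost. The Tgfbr2 call was also lost with RLE factors (adjusted p = 0.0558), with no filter (adjusted p = 0.0929, both edgeR) and in DESeq2, which put it at 0.57, under the fold limit. It held in 4 of 20 alternatives. The cause was not tested.

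Uncalled values near 0 changed sign. With the length offset, day 1 injured against naïve gave -0.061 for Tgfb2 and -0.020 for Ltbp1, day 7 against day 1 injured gave -0.067 for Tgfb1, day 7 contralateral against naïve gave 0.092 for Tgfbr2 (0.0012 with DESeq2) and day 1 contralateral against naïve gave -0.029 for Tgfb1. Leaving out 1 library gave, for day 1 injured against naïve, -0.043 to 0.097 for Tgfb2, -0.046 to 0.28 for Tgfb3, -0.041 to 0.10 for Tgfbr2, -0.055 to 0.075 for Tgfbr3, -0.0080 to 0.062 for Ltbp1, -0.53 to 0.85 for Ltbp2 and -0.13 to 0.43 for Ltbp4. It gave -0.85 to 1.18 for Ltbp2 between day 1 injured and contralateral libraries. For day 7 contralateral against naïve it gave -0.070 to 0.10 for Tgfbr2, -0.16 to 0.029 for Ltbp1, -0.17 to 0.29 for Ltbp3 and -0.36 to 0.46 for Ltbp4. For day 1 contralateral against naïve it gave -0.060 to 0.096 for Tgfb1, -0.16 to 0.0029 for Tgfbr1, -0.22 to 0.027 for Ltbp1 and -0.85 to 0.83 for Ltbp2. The difference between injury effects ran from -0.11 to 0.11 for Tgfb1, -0.14 to 0.022 for Tgfbr1 and -0.19 to 0.65 for Ltbp4.

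A fit of the other 5 comparisons on all libraries but day 7 contralateral replicate 1, chosen after seeing the data, changed no call of the 10 genes. No paired analysis was possible because the labels give no replicate numbers shared between groups. Groups of 3 pooled libraries limit the precision of every fold change.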
